A study of Mus musculus with 4 samples.

Results

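The dystrophin-glycoprotein complex was followed through 8 of its genes, Dmd, Utrn, Dag1, Sgca, Sgcb, Sgcd, Sntb1 and Dtna, taken by name from a table of 55401 genes. All 8 were found, and all 8 were among the 18475 genes with enough counts to test. The tissue was mouse heart at day 28. In the MI group (n = 2 libraries) the heart had been through a ligation operation that leads to myocardial infarction, and in the Sham group (n = 2) the chest was opened with no ligation. Strain, sex, age and the part of the heart taken are not given per sample, and the sources used here do not say whether the libraries came from separate animals, so the spread between them may be technical. The study as titled concerns cyanidin, a pigment of plants, and no library here is labelled as given it.

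The complex spans the muscle cell membrane. Dystrophin, encoded by Dmd, holds actin filaments at one end and beta-dystroglycan at the other, and alpha-dystroglycan on the outer face binds laminin through sugar chains. Sarcoglycans steady this axis within the membrane, while dystrobrevin and the syntrophins bind dystrophin from inside and carry signalling proteins and channels. Loss of dystrophin causes muscular dystrophy with cardiomyopathy in humans and in mice, and loss of some of the sarcoglycans causes muscular dystrophy. Utrophin, encoded by Utrn, is a close relative of dystrophin that can take its place in the complex.

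Promoter sequences of RefSeq (GRCm38.p6) were at hand for 6 of the 8 genes. The 250 bases before the first listed start are shown for 3 genes, so that their base composition can be compared. These are the 2 large homologues, whose differences were the furthest below 0 of the 8, and Dag1, with the highest mean FPKM of the 8. Capitals mark each match to the E-box letters CANNTG on either strand in Dmd (chrX:82948620-82948869, plus strand) and Utrn (chr10:12861736-12861985, minus strand), and each match to the GC box letters GGGCGG in Dag1 (chr9:108263959-108264208, minus strand).
Dmd: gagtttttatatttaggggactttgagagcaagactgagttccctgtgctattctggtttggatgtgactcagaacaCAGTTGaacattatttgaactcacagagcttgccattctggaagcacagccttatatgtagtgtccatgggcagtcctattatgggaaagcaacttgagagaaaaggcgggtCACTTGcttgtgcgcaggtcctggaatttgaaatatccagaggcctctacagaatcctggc
Utrn: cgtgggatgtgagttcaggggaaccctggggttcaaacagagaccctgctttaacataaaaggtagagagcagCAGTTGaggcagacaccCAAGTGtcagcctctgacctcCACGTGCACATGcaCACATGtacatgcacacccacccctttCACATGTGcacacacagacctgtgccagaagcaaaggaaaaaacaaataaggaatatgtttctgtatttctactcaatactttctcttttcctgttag
Dag1: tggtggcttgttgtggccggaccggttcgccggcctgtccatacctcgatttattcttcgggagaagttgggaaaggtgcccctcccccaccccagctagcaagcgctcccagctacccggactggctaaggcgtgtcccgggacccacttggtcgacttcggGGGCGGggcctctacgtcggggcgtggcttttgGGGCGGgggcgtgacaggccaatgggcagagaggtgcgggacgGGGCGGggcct
The Utrn stretch held 7 E-box matches, some overlapping, and the Dmd stretch held 2. At least 1 such match lay in 66.2% of the 32851 promoter stretches of the same length. Neither of them held a GC box, while the Dag1 stretch held 3, against 32.7% of all stretches with at least 1. The G and C share was 45.2% for Dmd, 46.8% for Utrn and 67.6% for Dag1. The MCAT motif of muscle promoters, searched as CATTCC, was in none of these 3 and in 12.6% of all stretches. A GATA site, searched as AGATAA, was also in none of them and in 9.99% of all, and so was the N-box core, searched as TTCCGG, with 12% of all. The stretch before a further listed start of Dmd, searched but not shown, held 3 GC box matches and 0 E-box matches. For Dmd, the GC box contrast with Dag1 therefore holds only for the stretch shown. A match is a run of letters, not a bound site. The Utrn stretch precedes the transcript with the longest coding form and lies inside the gene, since other annotated coding transcripts begin upstream of it, at 12868281 and 12869365; the sequence before those starts was not searched.

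Depth was alike in the 4 libraries, with 66624106 to 75979320 estimated counts each. All 16 sarcomere markers of cardiomyocytes were detected in every library, and their summed level was 19800 and 20300 FPKM in MI, against 19300 and 21000 FPKM in Sham. FPKM is a fragment level scaled for gene length and library size. In the edgeR test described below, 13 of these 16 markers had a negative log2 difference, MI minus Sham, and the median was -0.18. At an unadjusted p under 0.05 in edgeR 2 were lower and 0 higher, against 4.51% and 7.12% of all genes tested. Both groups also carried RNA of other tissue. The 12 lung epithelium markers summed to 294 FPKM in MI replicate 1 and to 0.46 FPKM in MI replicate 2, against 0.31 and 1.29 FPKM in Sham, with 8, 10 and 7 of the 12 at 0 in these 3 libraries. In MI replicate 1 the 10 skeletal muscle markers summed to 11.9 FPKM, against 1.31 FPKM in MI replicate 2 and 2.06 and 2.04 FPKM in Sham. The atrial gene Myl7 had 1.2 and 0.41 FPKM in MI, against 0.46 and 1127.51 FPKM in Sham. The 10 atrial markers summed to 2930 and 2020 FPKM in MI, against 333 and 5290 FPKM in Sham. Nppa made up most of the MI sums, with 2631.97 and 1855.23 FPKM in MI, against 151.42 and 3515.19 FPKM in Sham. Myl4, Sln and Bmp10 had 185.53, 121.43 and 57.62 FPKM in Sham replicate 2, and 0.6 FPKM or less in every other library. The 6 adipocyte markers summed to 0.01 and 0.43 FPKM in MI, against 0.05 and 143 FPKM in Sham, so atrial Myl7 and adipocyte RNA stood out in Sham replicate 2. Their part in the results below was not tested. In whole tissue, fewer cells of a type and less RNA per cell cannot be told apart.

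The 8 genes covered a wide range of levels. Dag1, which encodes both dystroglycans, had 46.11 and 42.34 FPKM in MI, against 37.61 and 32.04 FPKM in Sham. Sgca, alpha-sarcoglycan, had 39.84 and 35.63 FPKM in MI and 35.75 and 34.45 FPKM in Sham. Sgcb, beta-sarcoglycan, followed at 22.82 and 24.58 FPKM in MI and 20.82 and 23.68 FPKM in Sham. The other 5 lay far below these 3. Dtna, alpha-dystrobrevin, stood at 3.79 and 3.42 FPKM in MI and 3.09 and 2.81 FPKM in Sham. Utrn stood at 1.73 and 1.63 FPKM in MI and 1.95 and 3.23 FPKM in Sham. For Dmd the levels were 1 and 0.79 FPKM in MI and 0.84 and 1.36 FPKM in Sham. Delta-sarcoglycan and beta-1-syntrophin were the lowest. Sgcd had 0.77 and 0.82 FPKM in MI and 0.73 and 0.67 FPKM in Sham, and Sntb1 had 0.45 and 0.36 FPKM in MI and 0.27 and 0.53 FPKM in Sham. Among neighbours in this order, Dag1 and Sgca overlapped in Sham but not in MI, Dtna and Utrn likewise overlapped in Sham alone, and Dmd and Sgcd overlapped in MI alone.

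**Figure D1:**
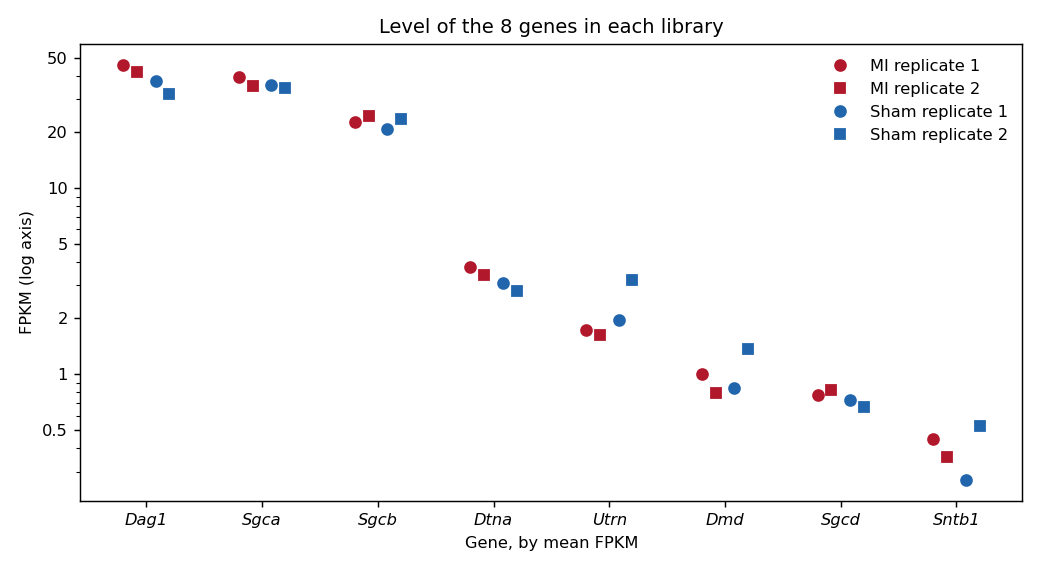
FPKM (log axis) of the 8 genes in each of the 2 MI (red) and 2 Sham (blue) libraries, in order of mean level. Dag1, Sgca and Sgcb lie between 20.82 and 46.11 FPKM, and the other genes between 0.27 and 3.79 FPKM.

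The order in the lower part depends on the length used. The deposited counts and FPKM of a gene were linked by 1 fixed length in all 4 libraries, and for these genes it matched the combined length of all annotated exons to within the rounding of FPKM. For Dmd that length is 23801 bases, whereas its longest coding transcript has 14910, in 79 exons. For Sgcd the exons sum to 8257 bases against 2450 for the longest coding transcript, and for Dtna to 16930 against 6295. With the longest coding transcript in place of the combined exons, Sgcd averaged 2.68 FPKM in MI and 2.36 FPKM in Sham, and Dtna 9.7 FPKM in MI and 7.94 FPKM in Sham. On the same footing Dmd averaged 1.43 FPKM in MI and 1.75 FPKM in Sham, and Utrn 2.32 FPKM in MI and 3.58 FPKM in Sham. Sgcd then lay above Dmd in both groups, and above Utrn in MI but below it in Sham. Because the length is fixed per gene, neither column tells long from short dystrophin transcripts. The annotation lists another coding start of Dmd at position 85048413 of chromosome X (GRCm38), whose longer transcript has 4438 bases in 18 exons, and its reads are summed with those of the full-length form.

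The comparison of MI with Sham asks whether the membrane complex of heart muscle differs in transcript level 28 days after surgery. For most of the complex the 2 groups could not be told apart at this replication. In edgeR's quasi-likelihood test 0 of the 8 genes passed an adjusted p under 0.05, and neither did any of the 18475 genes tested (0%). At an unadjusted p under 0.05 there was 1 of 8, Utrn, lower in MI, where 11.6% of all genes tested passed in either direction and 4.51% were lower in MI. That is near the share over all genes. DESeq2 also called 1 of the 8, Utrn, with 4.39% of its genes called. The median log2 difference of the 8 genes was -0.12, and that of all genes tested was 0.0. CPM, used from here on, are counts brought to a common library size by the trimmed mean of M-values (TMM), which sets the bulk of genes to no change. With 2 libraries in each group an exact permutation test of 1 gene cannot give a 2-sided p under 0.333, so the p-values rest on a spread pooled over genes.

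Utrn had the largest difference of the 8. This gene (ENSMUSG00000019820, chromosome 10, 12382188 to 12868281, minus strand) had 28.3 and 29.8 CPM in the MI libraries, against 41.4 and 61.8 CPM in the Sham libraries. Both MI values lay below both Sham values, and the MI pair was the tighter. The means were 29.1 ± 1.1 CPM in MI and 51.6 ± 14.4 CPM in Sham (SD, n = 2 each), and the log2 difference was -0.83 ± 0.22 (SE), a fold of 0.563 with a 95% interval of -1.41 to -0.25 on the log2 scale. In edgeR the unadjusted p was 0.0146 and the adjusted p 0.338, and in DESeq2 the adjusted p was 0.0421. Over the 15 alternatives run, all of which gave a negative difference, the adjusted p ran between 0.0421 and 0.989. Sham replicate 2 set much of the size. Without it the log2 difference of Utrn was -0.51, and without Sham replicate 1 it was -1.09. The unadjusted edgeR p was 0.0891 without MI replicate 1, 0.0736 without MI replicate 2, 0.069 with scaling to total counts and 0.0532 with scaling to sarcomere genes, each above the threshold of 0.05. In limma on the deposited FPKM the log2 difference of Utrn was -0.40 with 1 added and -0.55 with 0.1 added, with an unadjusted p of 0.138 and 0.128.

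Dmd leaned the same way with less separation. The dystrophin gene (ENSMUSG00000045103, chromosome X, 82948870 to 85206141, plus strand) had 22.8 and 20.2 CPM in the MI libraries, against 24.7 and 36.2 CPM in the Sham libraries. The groups did not overlap, but the gap between MI replicate 1 and Sham replicate 1 was smaller than that between the Sham libraries. Dmd averaged 21.5 ± 1.83 CPM in MI and 30.5 ± 8.07 CPM in Sham (SD, n = 2 each), with a log2 difference of -0.50 ± 0.22, a 95% interval of -1.08 to 0.08 and an adjusted p of 0.474 in edgeR. The interval takes in no change. Without Sham replicate 2 the log2 difference was -0.20, and without Sham replicate 1 it was -0.75, where the unadjusted edgeR p was 0.00702. On the FPKM scale the 2 groups of Dmd overlapped.

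Dmd and Utrn shared a high value in Sham replicate 2. On the log2 scale, with 0.5 CPM added, that library exceeded Sham replicate 1 by 0.57 for Utrn and 0.54 for Dmd, and 12.9% and 14% of the tested genes had a larger gap. Both genes have very long transcripts. Among 272 tested genes with a transcript over 10000 bases and a mean of at least 5 CPM, the median gap was 0.08, against -0.1 among 2077 genes of up to 2000 bases. Smooth muscle also carries both proteins. Its 8 markers, all detected in every library, summed to 144 and 87.8 FPKM in MI, against 69.0 and 129 FPKM in Sham. Acta2 was the largest part in every library, at 81.65 and 40.8 FPKM in MI, against 33.12 and 62.82 FPKM in Sham. The markers were split in FPKM. Acta2, Smtn, Lmod1 and Mylk were highest in MI replicate 1. Myh11, Cnn1, Tagln and Myocd were highest in Sham replicate 2, as were Dmd and Utrn. The part of transcript length, smooth muscle or the atrial and adipocyte RNA of Sham replicate 2 in the Dmd and Utrn values was not tested.

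**Figure D2:**
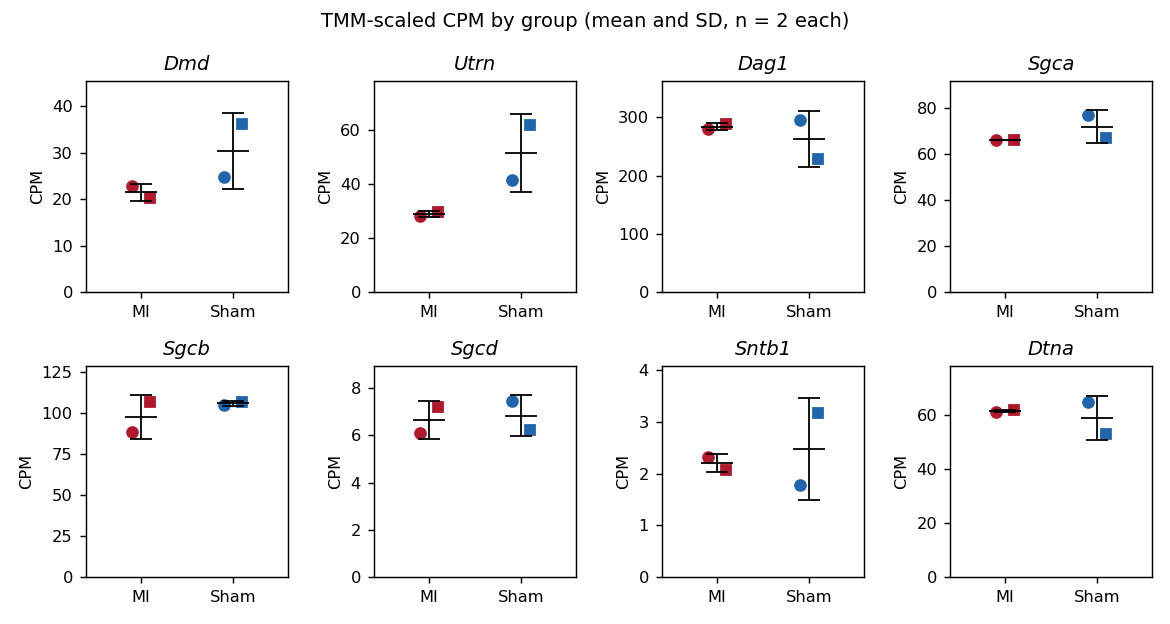
TMM-scaled CPM of each gene in the MI (left, red) and Sham (right, blue) libraries, circles for replicate 1 and squares for replicate 2, with the mean and SD of each group (n = 2). Utrn at 28.3 and 29.8 CPM in MI lies below 41.4 and 61.8 CPM in Sham, while Dag1, Sgcb, Sgcd, Sntb1 and Dtna overlap between the groups.

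Dystroglycan itself did not differ beyond the spread. The Dag1 gene (ENSMUSG00000039952, chromosome 9, 108204634 to 108263958, minus strand) had 280 and 288 CPM in MI, against 296 and 228 CPM in Sham. The MI values lay between those of the Sham pair. The log2 difference was 0.12 ± 0.17, with a 95% interval of -0.33 to 0.57 and an adjusted p of 0.833 in edgeR. It was -0.06 without Sham replicate 2 and 0.32 without Sham replicate 1. Scaling mattered for this gene. On the FPKM scale, and with scaling to total counts, Dag1 was higher in both MI libraries, and the log2 difference was 0.35 with an unadjusted edgeR p of 0.0484 under total counts, where the median of all genes also moved up by 0.23. In limma on FPKM with 1 or 0.1 added it was 0.34 and 0.35, with an unadjusted p of 0.0448 and 0.0441, and Dag1 was then the 1 gene of the 8 under 0.05.

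Of the sarcoglycans, none was separated from its Sham level by more than the spread. Sgca (ENSMUSG00000001508, chromosome 11, 94962791 to 94976327, minus strand) had 66 and 66.2 CPM in MI, against 76.9 and 66.8 CPM in Sham. The MI values lay just under the lower Sham value. Its log2 difference was -0.12 ± 0.13 with a 95% interval of -0.46 to 0.22. Sgcb (ENSMUSG00000029156, chromosome 5, 73632749 to 73647790, minus strand) had 88.3 and 107 CPM in MI and 105 and 107 CPM in Sham, a log2 difference of -0.12 ± 0.14 with a 95% interval of -0.50 to 0.26. Here MI replicate 1 was the low library. Sgcd (ENSMUSG00000020354, chromosome 11, 46896253 to 47988969, minus strand) had 6.08 and 7.21 CPM in MI and 7.44 and 6.22 CPM in Sham, with a log2 difference of -0.04 ± 0.22 and a 95% interval of -0.61 to 0.53. The adjusted p in edgeR was 0.751 for Sgca, 0.783 for Sgcb and 0.956 for Sgcd. The sign of all 3 turned positive on the FPKM scale and under scaling to total counts or to sarcomere genes, with values of 0.08 to 0.19.

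Dtna and Sntb1, whose products bind dystrophin from inside, overlapped between the groups in CPM, though Dtna did not in FPKM. Dtna (ENSMUSG00000024302, chromosome 18, 23415135 to 23659386, plus strand) had 61.4 and 62 CPM in MI, against 65 and 53.3 CPM in Sham. Its log2 difference was 0.06 ± 0.15, with a 95% interval of -0.32 to 0.44 and an adjusted p of 0.901 in edgeR, and it was -0.08 without Sham replicate 2. Sntb1 (ENSMUSG00000060429, chromosome 15, 55636388 to 55906949, minus strand) was the least abundant, with 2.33 and 2.08 CPM in MI and 1.78 and 3.17 CPM in Sham. Its MI values lay between those of the Sham libraries. The log2 difference was -0.17 ± 0.39, the 95% interval ran between -1.19 and 0.85, and the adjusted p in edgeR was 0.898. The interval spans a large change in either direction, so a difference in Sntb1 was not detectable at this depth and replication. Its sign was positive without Sham replicate 2 (0.31), on the FPKM scale and under scaling to total counts or sarcomere genes.

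By overlap alone, the groups did not overlap in CPM for 3 of the 8 genes, where 46.7% of all genes tested did not. In these 3, Dmd, Utrn and Sgca, the MI pair was the lower, and it was the higher for 0. Over all genes tested, 21.9% had the MI pair lower and 24.9% had it higher. In FPKM the count was 1 of 8 below, Utrn, and 3 above, Dag1, Sgcd and Dtna, where the background was 8.89% below and 39% above. Utrn was the 1 gene of the 8 with no overlap in the same direction on both scales. Relative to the median of all genes, the median of the 8 was -0.12 in edgeR under TMM, total counts and mitochondrial removal, -0.13 with scaling to sarcomere genes, and -0.01 and -0.10 in limma with 1 and 0.1 FPKM added.

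**Figure D3:**
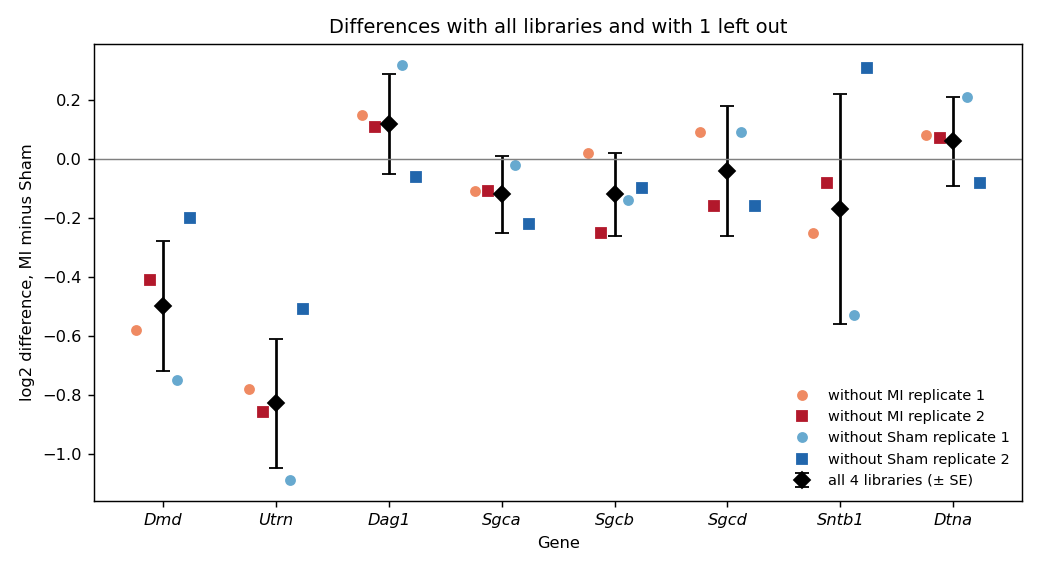
Log2 difference of each gene, MI minus Sham, with all 4 libraries (black diamond ± SE) and with each library left out in turn (red for an MI library, blue for a Sham library). Utrn stays between -1.09 and -0.51 and Dmd between -0.75 and -0.20, while the other 6 lie within 0.53 of 0, and of these Sgca does not cross it.

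Ratios within a library do not depend on how libraries are scaled to each other. The ratio of Dag1 to Utrn in FPKM was 26.7 and 26.0 in MI, against 19.3 and 9.92 in Sham. Both MI ratios were the higher. For Utrn to Dmd the ratio was 1.73 and 2.06 in MI, against 2.32 and 2.38 in Sham, so utrophin was lower relative to dystrophin in both MI libraries. Dag1 to Dmd gave 46.1 and 53.6 in MI, against 44.8 and 23.6 in Sham, and Sham replicate 2 alone stood far apart. Dtna to Dmd was 3.79 and 4.33 in MI, against 3.68 and 2.07 in Sham. Sntb1 to Dmd was 0.45 and 0.456 in MI, against 0.321 and 0.39 in Sham. For Sgce, the epsilon-sarcoglycan gene, to Sgca it was 0.0377 and 0.034 in MI, against 0.0201 and 0.0322 in Sham. In these pairs both MI ratios were the higher. Sgca to Dag1 was lower in MI, at 0.864 and 0.842, against 0.951 and 1.08 in Sham. The pairs that follow overlapped between the groups, as did Sgca, Sgcb and Sgcd to Dmd. Dtna to Dag1 was 0.0822 and 0.0808 in MI and 0.0822 and 0.0877 in Sham. Sgca to Sgcb was 1.75 and 1.45 in MI and 1.72 and 1.45 in Sham, a spread within each group close to the gap between the groups for Utrn to Dmd, and Sgca to Sgcd was 51.7 and 43.5 in MI and 49.0 and 51.4 in Sham. These ratios are descriptions and were not tested.

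**Figure D4:**
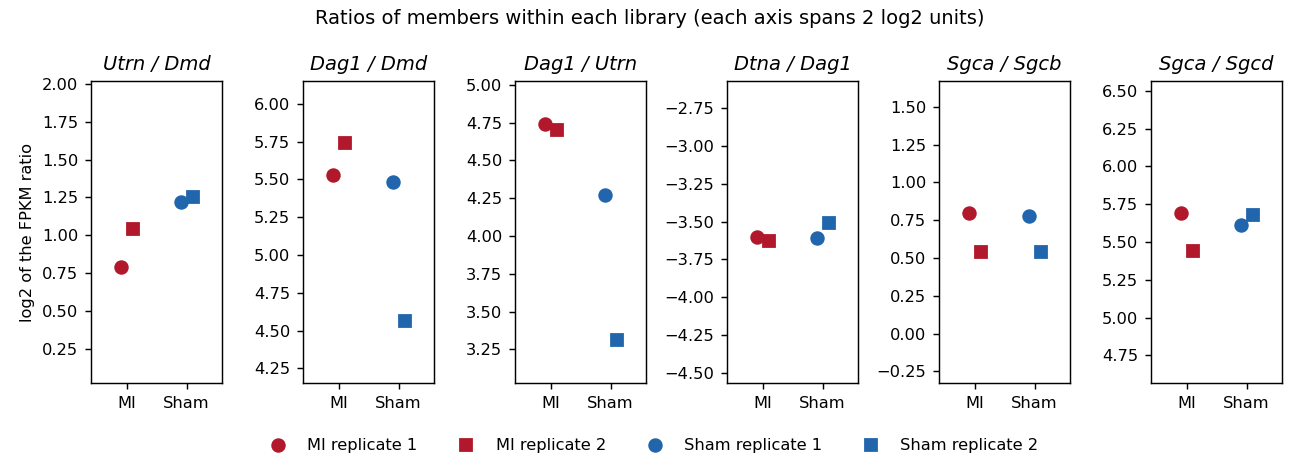
Log2 of the FPKM ratio of 6 pairs in each library, MI left and Sham right, circles for replicate 1 and squares for replicate 2, with each axis spanning 2 log2 units. Dag1 to Utrn is higher in both MI libraries (4.74 and 4.70, against 4.27 and 3.31 in Sham), and Dtna to Dag1 stays between -3.63 and -3.51 in all 4.

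A search over the 10684 tested genes with a mean of at least 1 FPKM gave those whose log2 CPM profile over the 4 libraries, centred on its mean, lay nearest to that of each homologue. For Dmd these were Mgat4a, Rpl31-ps9 and Mphosph6, at distances of 0.027, 0.051 and 0.061. For Utrn they were Slc7a1, Nt5c1a and Rlim, at distances of 0.089, 0.116 and 0.118. Dmd, Sgcd and Sntb1 are under 1 FPKM and not in that set, but their distances can be placed in its order. The distance between Dmd and Utrn, 0.368, would put Dmd at position 118 from Utrn, nearer than the other 6 genes of the complex, and Utrn stood at position 429 from Dmd. These distances rest on 4 libraries and are a description.

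Of 10 other subunits, 8 could be tested, and 0 passed an unadjusted p under 0.05 in either direction in edgeR (0 in DESeq2 after adjustment). Their median log2 difference was 0.01. Sham replicate 2 weighed on these values. Without it the median was 0.48, and without Sham replicate 1 it was -0.15. In limma 1 was higher at an unadjusted p under 0.05, with a median of 0.15 or 0.26 by the FPKM added. There 2223 or 2190 of the 18475 genes were higher. Sspn, sarcospan, which sits beside the sarcoglycans, had 26.07 and 26.17 FPKM in MI and 22.26 and 28.86 FPKM in Sham, with a log2 difference of -0.18 ± 0.15. In FPKM the MI values lay between those of the Sham pair. In CPM they were 124 and 140, against 138 and 161 in Sham, so MI replicate 1 lay below both. The sign was positive under scaling to total counts, at 0.04. Sgce, epsilon-sarcoglycan, found in smooth muscle and other tissues, had 1.5 and 1.21 FPKM in MI and 0.72 and 1.11 FPKM in Sham, and a log2 difference of 0.36 ± 0.22, with both MI libraries above both Sham libraries.

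Sntb2, beta-2-syntrophin, was uneven between the Sham libraries. It had 2.31 and 1.86 FPKM in MI and 0.99 and 2.41 FPKM in Sham, so that the MI values lay between the Sham values. Its log2 difference was 0.10 ± 0.39. It was 0.77 without Sham replicate 2, with an unadjusted edgeR p of 0.00872, and -0.36 without Sham replicate 1, with a p of 0.0731. The relatives Dtnb, Drp2 and Sntg2 were near the limit of detection, at 0.21 FPKM or less in every library. Their log2 differences were -0.11 ± 0.44, -0.66 ± 1.17 and 2.12 ± 1.51, and Sntg2 had no counts in Sham replicate 1. Sgcz and Sntg1 had too few counts to test.

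Matrix proteins that bind dystroglycan, or lie beside it in the basement membrane, stood apart from the complex itself. Of 12 tested, 8 were higher and 0 lower in MI at an unadjusted p under 0.05 in edgeR, where 7.12% of all genes were higher. The median log2 difference was 0.51, against 0.0 over all genes. None passed an adjusted p under 0.05 in edgeR, and DESeq2 called 3, Lamc1, Bgn and Dcn. Without MI replicate 1, the library with lung transcripts, the median was 0.38, and without MI replicate 2 it was 0.56. With the replicate block 5 were higher, where 1002 of the 18475 genes were. Lama2, the alpha-2 chain of the laminin of muscle, had 101 and 95.1 CPM in MI, against 65.5 and 75.3 CPM in Sham, a log2 difference of 0.48 ± 0.13. Its gamma partner Lamc1 had 257 and 226 CPM in MI, against 140 and 163 CPM in Sham (log2 difference 0.67 ± 0.15, adjusted p = 0.305 in edgeR). For both chains the MI libraries were above the Sham libraries.

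Hspg2, perlecan, a heparan sulfate proteoglycan of basement membranes, had a log2 difference of 0.55 ± 0.15. Bgn, biglycan, a small leucine-rich proteoglycan, had 889 and 520 CPM in MI, against 201 and 326 CPM in Sham, and a log2 difference of 1.42 ± 0.36. Dcn, decorin, had 517 and 580 CPM in MI and 322 and 378 CPM in Sham, with a log2 difference of 0.65 ± 0.16. Summed markers of fibroblasts, the cells that make much of this matrix, were also higher in both MI libraries. The 10 scar fibroblast markers summed to 447 and 243 FPKM in MI, against 31.7 and 58.0 FPKM in Sham, and the 10 resting fibroblast markers, which include Dcn, to 559 and 549 FPKM in MI, against 280 and 446 FPKM in Sham. At an unadjusted p under 0.05 in edgeR 7 scar and 5 resting markers were higher and 0 lower, against 7.12% and 4.51% of all genes. Gsn, the largest part of the resting sum, overlapped between the groups, at 246.92 and 288.64 FPKM in MI and 176.24 and 283.73 FPKM in Sham. All of the fibroblast markers were detected in every library except 1 scar marker, at 0 in Sham replicate 2. Endothelial cells also make basement membrane. Of their 8 markers 4 were higher and 0 lower at an unadjusted p under 0.05 in edgeR, against 7.12% and 4.51% of all genes. Their median was 0.38. The 8 endothelial markers summed to 199 and 157 FPKM in MI, against 104 and 128 FPKM in Sham, all detected in every library. The part of either cell type in the laminin and proteoglycan values was not tested.

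**Figure D5:**
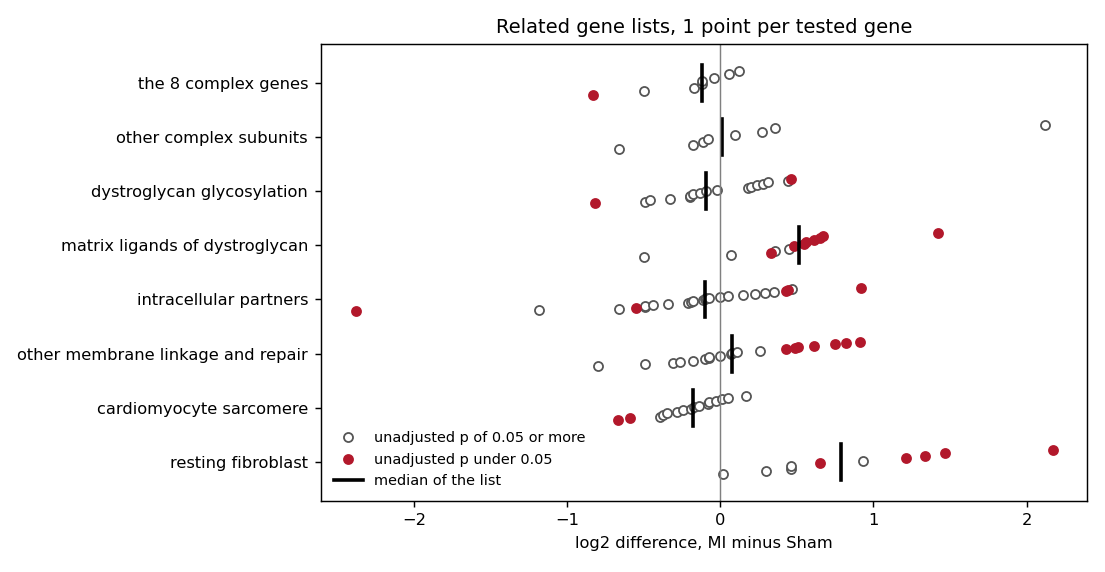
Log2 difference, MI minus Sham, of each tested gene in 8 lists, filled red at an unadjusted p under 0.05 in edgeR and open otherwise, with a bar at each median. The 8 complex genes have a median of -0.12 and the sarcomere markers -0.18, while the matrix ligands have 0.51 and the resting fibroblast markers 0.79.

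Enzymes that build the sugar chains of alpha-dystroglycan, without which it cannot bind laminin, had a median whose sign depended on the scaling. Of 17 tested, 1 was higher and 1 lower in MI at an unadjusted p under 0.05 in edgeR, against 7.12% and 4.51% of all genes, and the median log2 difference was -0.09. With total counts 4 were higher and 1 lower, where 2315 and 296 of the 18475 genes were, and the median was 0.14. In limma 2 were higher and 0 lower, where 2223 and 336 genes were with 1 FPKM added and 2190 and 344 with 0.1. The median was then 0.11 or 0.28, and it was 0.13 with sarcomere scaling and 0.08 with the replicate block. Pomt2, which starts the O-mannosyl chain together with Pomt1, had 13.7 and 12.7 CPM in MI, against 10.1 and 9.14 CPM in Sham (log2 difference 0.46 ± 0.17). B3galnt2, which adds the third sugar, had 6.63 and 9.3 CPM in MI, against 13.6 and 14.5 CPM in Sham (log2 difference -0.82 ± 0.23). Pomgnt1, another transferase of this pathway, had 0.18 ± 0.12. Their adjusted p in edgeR was 0.411, 0.341 and 0.601.

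Inside the cell, 25 genes linked to the complex with varying strength could be tested, and 3 were higher and 2 lower in MI at an unadjusted p under 0.05 in edgeR, against 7.12% and 4.51% of all genes, with a median of -0.10. With a library left out, the median was -0.14 without MI replicate 1 and -0.05 without MI replicate 2. For Sham replicates 1 and 2 left out it was -0.13 and -0.16. The median was 0.12 with total counts, 0.13 with sarcomere scaling and 0.06 or 0.10 in limma. Cav3, caveolin-3 of muscle caveolae, which binds beta-dystroglycan, had 32.5 and 34.9 CPM in MI, against 55.6 and 42.9 CPM in Sham, and a log2 difference of -0.55 ± 0.17. Both MI values were below both Sham values. Ankrd2, a stretch-responsive ankyrin repeat gene, had 0.563 and 0.58 CPM in MI, against 4.11 and 1.86 CPM in Sham (log2 difference -2.38 ± 0.51), and was the 1 gene of these 25 called by DESeq2, with an adjusted p of 0.00493. Over its alternatives the adjusted p ran between 0.00493 and 0.989. Vim, the intermediate filament protein of mesenchymal cells, had a log2 difference of 0.92 ± 0.29, the tubulin gene Tubb5 0.43 ± 0.13 and the exchange factor gene Arhgef5 0.44 ± 0.13. The adjusted p in edgeR was 0.301 to 0.363 for these 5. Des, desmin, which joins Z-discs to the membrane, averaged 2010 ± 0.149 CPM in MI and 2010 ± 339 CPM in Sham, so its means were alike while the Sham libraries differed.

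Other links between membrane, matrix and cytoskeleton gave 7 higher and 0 lower of 20 tested at an unadjusted p under 0.05 in edgeR, against 7.12% and 4.51% of all genes, with a median of 0.07. Without MI replicate 1 the median was -0.0, and without MI replicate 2 it was 0.19. The median was 0.31 with total counts or sarcomere scaling and 0.25 or 0.29 in limma. Annexins, which bind damaged membrane, had the 3 smallest p-values. Anxa1, Anxa2 and Anxa5 had log2 differences of 0.91 ± 0.18, 0.75 ± 0.15 and 0.61 ± 0.12, an adjusted p of 0.286, 0.287 and 0.275 in edgeR, and all 3 were called by DESeq2. The fourth annexin of the list, Anxa6, chosen after its values were seen, had a log2 difference of -0.18 ± 0.13, with an unadjusted edgeR p of 0.225. Anxa5 had 117 and 120 CPM in MI, against 77.2 and 77.9 CPM in Sham, a gap far larger than the spread within either group. The integrin-linked genes Vcl (vinculin) and Parva (alpha-parvin) had 0.49 ± 0.14 and 0.51 ± 0.15. Trim72, the muscle membrane repair protein, averaged 228 ± 2.39 CPM in MI and 228 ± 10.3 CPM in Sham, and Itgb1bp2, melusin, a muscle partner of integrin, had a log2 difference of -0.26 ± 0.14. Annexins and vimentin are also made by fibroblasts and immune cells. The 8 macrophage markers summed to 203 and 120 FPKM in MI, against 95.2 and 112 FPKM in Sham, all detected in every library. Their part in these values was not tested.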

How the data were processed

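The deposited table gives an estimated count and an FPKM per gene and library, per the file headers. The estimated counts are whole numbers but not 1 per fragment, since low values pile up at multiples of 4 (1148 to 1174 genes at a count of 4, and 284 to 331 at 3). The libraries were made from poly(A) RNA with dUTP strand marking and read in pairs, per the labels. Per the submitters' processing notes, the tools were HISAT2 2.0.4, StringTie 1.3.4d, cutadapt 1.9 and UMI-tools, without roles or order. Neither the build nor the use of strand in counting is given in the sources used here, so a gene's counts may hold reads of overlapping or antisense genes. GENCODE M21 (GRCm38) holds 99.5% of the identifiers, 93.8% with the same start and end. The deposited FPKM, set by the authors, equal the count divided by a fixed length per gene and a constant per library, as measured on 681 to 788 genes with 1 annotated transcript.

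Groups follow the sample titles. Low genes were removed by filterByExpr (minimum count 10, minimum total 15), and counts were scaled by TMM (factors 1.146 and 1.021 in MI, 0.8773 and 0.9747 in Sham) and tested with edgeR 4.0.16 (R 4.3.3; 2-sided quasi-likelihood test, group as the only term, Benjamini-Hochberg over 18475 genes, threshold 0.05). The biological coefficient of variation was 0.368. DESeq2 1.42.0, limma 3.58.1 on log2(FPKM + 1) or log2(FPKM + 0.1), other filters and scalings, a replicate block and leaving out each library were the alternatives. The fits were tested on simulated counts. The 8 genes, the lists and the tests were chosen with earlier results of these data known, so no p over a list is given. Genes named outside the 8 are the other subunits tested, some of which are not reported here, and, per related list, up to 5 with the smallest p under 0.05 and 2 of highest FPKM; cell type markers are given as sums over their lists. B4gat1 and Actg1, named by that rule, are described after the report. No column lacked a labelled sample.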

Additional observations from a re-analysis of the deposited data

How the results depend on the processing

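The differences of Dmd and Utrn stayed negative in all 14 and 15 alternatives that could be run for them. Genes past an adjusted p under 0.05 numbered 638 in DESeq2, 1 with scaling to sarcomere genes and 0 to 10 with a library left out, against 0 in edgeR (2150 at an unadjusted p under 0.05). Of the 8 genes, DESeq2 called 1 after adjustment (Utrn, log2 difference -0.84). At an unadjusted p, 0 passed with scaling to sarcomere genes and 0 to 2 with a library left out. The median of the 8, -0.12, was 0.08 and 0.10 in limma on log2(FPKM + 1) and log2(FPKM + 0.1), 0.10 with total counts, 0.02 with the non-mitochondrial counts alone as library size (an alternative chosen after seeing the data) and 0.10 with sarcomere scaling. In these the median of all genes moved by 0.09, 0.19, 0.23, 0.14 and 0.22 from TMM, and of the genes at an unadjusted p under 0.05, the part higher in MI, 61.2% under TMM, was 86.9%, 86.4%, 88.7%, 82% and 87.1%. In the same order the reversed values were 0.10, 0.10, 0.11, 0.02 and 0.10 for Sgca, 0.09, 0.09, 0.10, 0.01 and 0.09 for Sgcb, 0.08, 0.16, 0.19, 0.10 and 0.17 for Sgcd, 0.01, 0.08, 0.08, 0.01 and 0.09 for Dtnb, and 0.11, 0.11, 0.14, 0.04 and 0.13 for Actg1. For Sntb1 they were 0.01, 0.06, 0.04 and 0.05, and for Sspn 0.04 each, in limma with both pseudocounts, total counts and sarcomere scaling. B4gat1 had 0.22 and 0.52 in limma and 0.03 with total counts, against -0.20 under TMM.

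With a library left out, the values ran between -0.06 and 0.32 for Dag1, -0.25 and 0.02 for Sgcb, -0.16 and 0.09 for Sgcd, -0.53 and 0.31 for Sntb1, -0.08 and 0.21 for Dtna, -0.36 and 0.77 for Sntb2, -0.45 and 0.34 for Dtnb, -2.14 and 1.22 for Drp2, -2.77 and 3.65 for B4gat1 and -0.29 and 0.07 for Actg1. The ligands then had a median of 0.38 to 0.62. With all libraries their median was 0.72 in limma on log2(FPKM + 0.1) and 0.74 with total counts. It was 0.65 with the non-mitochondrial counts alone as library size, and 0.74 with sarcomere scaling. The cause of these shifts between scalings was not tested. With a library left out, the lone library of a group is assumed to vary like the others. Dmd, Sgcd and Sntb1 could not be fitted with a mean FPKM of at least 1.

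Replicate numbers are shared by the groups, but nothing says that they pair the libraries, and the deviations of MI and Sham replicate 1 had a correlation of -0.056 over 18475 genes. With the replicate block Utrn had a log2 difference of -0.80, 5 ligands were higher at an unadjusted p, and B4gat1 had 0.31. A count of 12 stands for about 3 fragments, which limits Sntg2 and Drp2. Intervals cover counting and library spread within these 4 libraries.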

Other observations

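Some enzymes of dystroglycan glycosylation varied by library rather than by group. B4gat1, which adds the primer for the laminin-binding repeat, had 1 and 9.94 FPKM in MI, against 10.37 and 0.41 FPKM in Sham, so that 1 library of each group was high and 1 low. Dpm1, a subunit of the synthase that supplies dolichol-phosphate mannose, chosen after its values were seen, had 2.64 and 2.54 FPKM in MI, against 0.51 and 3.22 FPKM in Sham.

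The neuronal nitric oxide synthase gene Nos1, whose product binds syntrophin in skeletal muscle, chosen after its values were seen, was at 0.06 FPKM or less in every library. The water channel gene Aqp4 of brain, chosen in the same way, had 0.45 and 0.23 FPKM in MI and 0.34 and 0.47 FPKM in Sham. Schwann cells carry a dystroglycan complex of their own, and their 8 markers summed to 4.59 and 2.56 FPKM in MI, against 1.95 and 4.21 FPKM in Sham.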
